A study of Mus musculus with 8 samples.

Results

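The glucocorticoid receptor (Nr3c1), the mineralocorticoid receptor (Nr3c2) and 8 genes known to respond to glucocorticoids were followed in mouse cortex. The 8 responsive genes were Fkbp5, Sgk1, Tsc22d3, Pdk4, Errfi1, Zbtb16, Cdkn1a and Nfkbia. All 10 were chosen by symbol, all 10 were found among the 55416 genes of the count table, and all 10 passed the filter on low counts. Polyadenylated RNA came from the cerebral cortex of mice of genotype AGO2_L192P/+ (L192P) and of wild-type mice (WT), with 4 libraries for each genotype. The L192P animals carried 1 copy of a proline substitution in Argonaute 2, the protein that carries miRNAs to their targets. According to the methods of the study the allele was made by CRISPR/Cas editing of C57BL/6JUke embryos and founders were bred to wild-type mice, so the allele was present throughout the body and not in the cortex alone. Age, sex, time of day of collection and hormone levels were not given in the sources used here. The comparison asked whether transcripts of the receptors and of genes under their control differed in abundance between both genotypes.

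Glucocorticoids such as corticosterone, the main glucocorticoid of mice, enter cells and bind the glucocorticoid receptor, which then moves to the nucleus and acts on transcription. In many induced genes it binds a palindromic DNA element, and in the brain it shares its hormone with the mineralocorticoid receptor, which binds corticosterone more tightly. Fkbp5 is among the induced genes, and its protein binds the receptor complex and lowers its affinity for hormone, which closes a feedback loop. Argonaute 2 acts on the other end of the transcript, where bases 2 to 8 of a miRNA, the seed, pair with matching sites in the 3′ UTR.

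Exact 7-base matches to the seeds of 7 brain-expressed miRNA families were searched in each gene's 3′ UTR, taken from the transcript that GENCODE M39 (GRCm39) lists as canonical. The sequences of the families found in Cdkn1a and Tsc22d3, the genes with the largest genotype differences among the 10, are shown here. Mature miRNAs from RefSeq are written 5′ to 3′ with the seed in capitals, and the first 4 share 1 seed.
miR-17-5p: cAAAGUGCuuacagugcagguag
miR-93-5p: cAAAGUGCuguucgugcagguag
miR-20a-5p: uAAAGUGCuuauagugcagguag
miR-106b-5p: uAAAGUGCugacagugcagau
miR-29a-3p: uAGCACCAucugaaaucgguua
The matching sites are written on the strand of the gene, with the bases that pair with the seed in capitals. The miR-17 site of Cdkn1a lies at chr17:29318803-29318809 (GRCm39, plus strand), its miR-29 site at chr17:29319668-29319674, and the miR-29 site of Tsc22d3 at chrX:139440658-139440664 (minus strand).
Cdkn1a, miR-17 site: agacctgaataGCACTTTggaaaaatgag
Cdkn1a, miR-29 site: gaccccaaagcTGGTGCTcaataaatact
Tsc22d3, miR-29 site: ccaccattcatTGGTGCTgactacataga
Of the other genes, Sgk1 held a miR-29 match, Nr3c1 a miR-18 match, Pdk4 a miR-17 and a miR-9 match, and Zbtb16 a miR-17 match and 2 let-7 matches. Nr3c2 held 2 and Errfi1 held 3 miR-135 matches, while Fkbp5 and Nfkbia held a match to none of the 7 families and no gene held one to miR-92. Among 14891 3′ UTRs, 15.3% held the miR-17 site, 16.7% the miR-29 site, 16.2% the miR-135 site, 10.1% the miR-18 site, 15.5% the miR-9 site, 11.6% the let-7 site and 8.07% the miR-92 site. A match is a description of the sequence and not a measured binding site, and its part in the genotype differences was not tested.

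The receptor binds a palindromic element in many induced genes, the glucocorticoid response element. Only its full palindrome (AGAACA, 3 bases of any kind, then TGTTCT, the same on both strands) was searched, by exact match. It occurred in the introns of 2 of the 10 genes. Of all 21770 protein-coding genes, 1.29% held it between their start and end. In Fkbp5 (minus strand, GRCm39) it lay at chr17:28639295-28639309 and chr17:28661393-28661407, and in Sgk1 (plus strand) at chr10:21869600-21869614. The palindrome is in capitals and each sequence is written on the strand of its gene.
Fkbp5, first element: cacattcAGAACAGGGTGTTCTgtgctct
Fkbp5, second element: ttgtttgAGAACAGCTTGTTCTaggcttt
Sgk1: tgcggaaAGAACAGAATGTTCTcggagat
None of the 10 genes held the full palindrome within 10000 bases of the annotated gene start, where 0.322% of protein-coding genes held it. RefSeq promoters (250 bases before to 50 after a transcript start, GRCm38.p6) were given for 8 of the 10 genes, and 1 of the 6 promoters of Sgk1 held the full palindrome, as did 3 of all 32851 promoters. This is the element of Sgk1 printed above, since that promoter holds all 29 bases shown. The gene bodies differ in length, and looser elements were not searched.

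The libraries held between 20396357 and 43575900 counts, and the 10 genes together took 0.0523% to 0.0642% of them. The smallest count of any of these genes in a library was 166 (Pdk4) and the largest was 5586 (Sgk1), so depth did not limit the detection of any of the 10. Replicate 1 of both genotypes stood apart from the other 6 libraries. It held 0.93 (L192P) and 1.82 (WT) normalized counts of Xist against 5185 to 7257, and genes of the Y chromosome took 3547 and 3534 counts against 186 to 573. Xist is expressed from the inactive X chromosome of females, so by these genes both replicate 1 libraries had the pattern of male tissue and the other 6 that of female tissue, while the labels give no sex. The summed markers of endothelial cells were 331 and 404 normalized counts in replicate 1 against 614 to 1245. The genotype differences are therefore given with and without these libraries. The tissue label was checked against 6 markers of cortical neurons, whose summed level was between 130575 and 158099 normalized counts in all 8 libraries. Markers of neighbouring regions were present too. The 6 striatal markers summed to 20921 to 26211 in L192P and 26728 to 32198 in WT. In bulk tissue, fewer cells of a type and less RNA per cell cannot be told apart.

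Per length of exon, the most abundant of the 10 transcripts were Sgk1, Tsc22d3 and Nr3c1. In WT, Sgk1 stood at 98.5 ± 18.6 TPM, a measure corrected for length and depth (SD, n = 4), Tsc22d3 at 88.5 ± 6.51 TPM and Nr3c1 at 83.2 ± 6.17 TPM. These 3 neighbours in the order overlapped between libraries. Nfkbia followed at 53.1 ± 10.1 TPM, below every WT library of Nr3c1 and above every WT library of Errfi1, which stood at 36.2 ± 2.64 TPM. The lowest WT library of Nfkbia, replicate 1 at 39.48 TPM, was only just above the highest of Errfi1, replicate 3 at 39.41 TPM. From there the neighbours overlapped again, with Nr3c2 at 30.4 ± 6.70, Fkbp5 at 27.5 ± 5.53, Cdkn1a at 27.4 ± 0.749, Zbtb16 at 21.7 ± 7.21 and Pdk4 at 14.03 ± 3.63 TPM. The lowest of them, Pdk4, was still above 61.5% of protein-coding genes in WT.

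**Figure D1:**
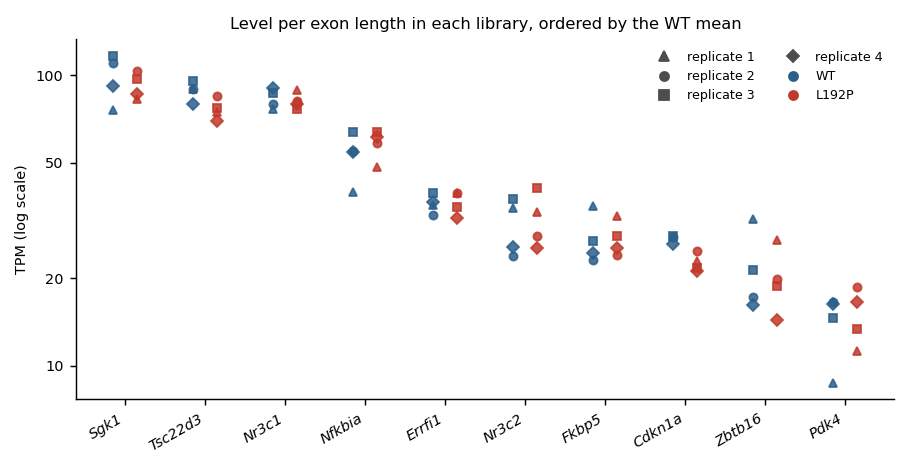
Level of each gene in TPM (log scale) in the 8 libraries, ordered by the WT mean, with WT in blue, L192P in red and the marker shape giving the replicate number. Sgk1, Tsc22d3 and Nr3c1 lead in both genotypes, and Pdk4 is lowest in the WT mean at 14.03 TPM.

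The glucocorticoid receptor transcript outnumbered that of the mineralocorticoid receptor in all 8 libraries. The ratio of Nr3c1 to Nr3c2 in TPM was 2.64, 2.92, 1.88 and 3.13 in L192P replicates 1 to 4 and 2.20, 3.34, 2.32 and 3.52 in WT replicates 1 to 4. Its mean was 2.64 ± 0.5495 in L192P and 2.84 ± 0.682 in WT (SD, n = 4), and the genotypes overlapped. Replicate 3 had the lowest ratio of the L192P libraries and replicate 1 the lowest of the WT libraries.

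When DESeq2 was fitted to the whole table, 1 of the 10 genes had an adjusted p under 0.05, Cdkn1a, which was lower in L192P than in WT. Over all 18627 genes tested, 1.36% passed in either direction and 0.569% passed as lower. Cdkn1a was also the only 1 of the 10 whose L192P and WT libraries did not overlap, which held for 5.97% of all genes tested. The fitted fold change was above 0 on the log2 scale for 3 of the 10 genes and below 0 for 7, with a median of -0.04, while the median of all genes tested was 0.0019. With size factors from total counts Fkbp5 and Errfi1, both near 0, turned above 0. The labels number the replicates but do not say that the numbers pair the libraries. Pairing was assumed from correlations between same-numbered libraries in these data, given below. With the replicate number as a block 2 of the 10 genes passed, Cdkn1a and Tsc22d3, beside 4.25% of all genes tested in that fit. Without both replicate 1 libraries 0 of the 10 genes passed, beside 3.46% of all genes. With edgeR on all 8 libraries 0 of the 10 passed as well, beside 0.314% of all genes. At an unadjusted p under 0.05, each of these fits gave 2 of the 10 genes, beside 9.44% of all genes tested in the fit without a block, 14.1% with the block, 13.6% without both replicate 1 libraries and 10.6% with edgeR.

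**Figure D2:**
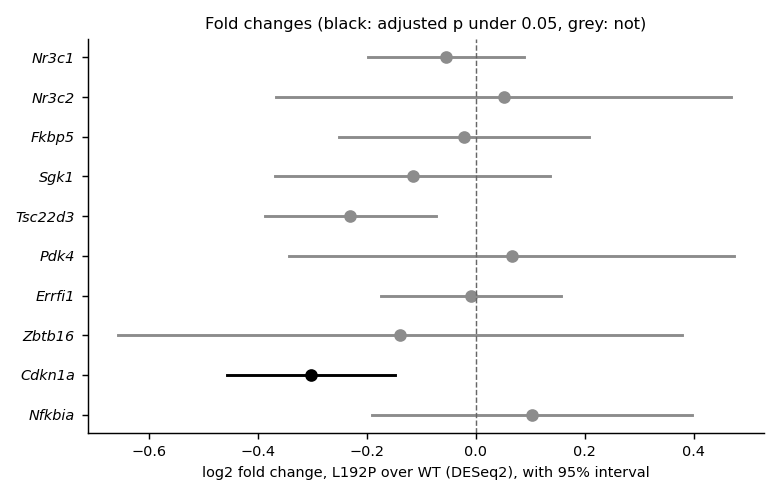
Log2 fold change of each gene, L192P over WT, from DESeq2 on all 8 libraries, with the 95% interval as a line, black where the adjusted p was under 0.05 and grey where it was not. Cdkn1a lies at -0.30 and is the only black point, and the intervals of Zbtb16, Nr3c2 and Pdk4 are the widest.

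Neither receptor transcript differed detectably. Nr3c1 (ENSMUSG00000024431, GRCm39 chromosome 18, 39543598 to 39652474, minus strand) had 3073, 2988, 2856 and 2960 normalized counts in L192P replicates 1 to 4 and 2742, 2988, 3209 and 3401 in WT. The L192P libraries all fell inside the range of the WT libraries, which spread more widely. L192P differed from WT by -0.05 on the log2 scale (SE 0.07, DESeq2 adjusted p = 0.930), and the 95% interval of the fold ran from 0.872 to 1.06. The difference was -0.12 without both replicate 1 libraries (DESeq2 adjusted p = 0.425). Nr3c2 (ENSMUSG00000031618, chromosome 8, 77625576 to 77971863, plus strand) had 1265, 1111, 1652 and 1025 normalized counts in L192P and 1354, 970, 1503 and 1050 in WT. Replicate 3 was the highest and replicates 2 and 4 were the lowest libraries in both genotypes. The difference was 0.05 on the log2 scale (SE 0.21, DESeq2 adjusted p = 0.987), and the interval of the fold, 0.776 to 1.38, was much wider than that of Nr3c1. Nr3c2 lay at 0.10 on the log2 scale without both replicate 1 libraries (DESeq2 adjusted p = 0.947).

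Fkbp5, the co-chaperone of the feedback loop (ENSMUSG00000024222, chromosome 17, 28618058 to 28737521, minus strand), carried 2 of the elements printed above. Its normalized counts were 1585, 1237, 1465 and 1324 in L192P replicates 1 to 4 and 1784, 1221, 1400 and 1294 in WT. Replicate 1 was the highest library of each genotype and replicate 2 the lowest, and the genotypes overlapped. L192P and WT differed by -0.02 on the log2 scale (SE 0.12, DESeq2 adjusted p = 0.993). The 95% interval of the fold ran from 0.841 to 1.16, and without both replicate 1 libraries the log2 fold change was 0.041 (DESeq2 adjusted p = 0.927).

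Sgk1, which encodes a kinase that acts on ion channels and transporters (ENSMUSG00000019970, chromosome 10, 21758083 to 21875802, plus strand), carried the third element. It had 2193, 2889, 2773 and 2450 normalized counts in L192P and 2067, 3155, 3294 and 2645 in WT. Replicate 1 was the lowest library of either genotype. L192P lay at -0.12 relative to WT on the log2 scale (SE 0.13, DESeq2 adjusted p = 0.902), and the interval of the fold ran from 0.775 to 1.10. Sgk1 lay at -0.17 without both replicate 1 libraries (DESeq2 adjusted p = 0.385).

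Tsc22d3, also called Gilz, encodes a leucine zipper protein through which glucocorticoids damp inflammatory signalling (ENSMUSG00000031431, chromosome X, 139440091 to 139501408, minus strand). It had 2037, 2452, 2267 and 2032 normalized counts in L192P and 2526, 2634, 2773 and 2367 in WT. L192P replicate 2 lay above WT replicate 4, so the genotypes overlapped, but in each of the 4 same-numbered pairs the L192P library had the lower value, as in 11.4% of all genes tested. The difference was -0.23 on the log2 scale (SE 0.08), with a 95% interval of -0.39 to -0.07. It did not pass in the comparison without a block (DESeq2 adjusted p 0.151, unadjusted p 0.00396), and p was 0.0571 in a two-sided exact permutation test on log2 normalized counts. With the replicate block the difference was again -0.23 (SE 0.06) and it passed, at adjusted p = 0.00612 by DESeq2 and 0.0352 by edgeR. Without both replicate 1 libraries its log2 fold change was -0.21 and its DESeq2 adjusted p was 0.178.

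Pdk4, a kinase that restrains the entry of pyruvate into the citric acid cycle (ENSMUSG00000019577, chromosome 6, 5483097 to 5496339, minus strand), had 188, 329, 241 and 297 normalized counts in L192P and 151, 299, 259.6 and 296 in WT. Replicate 1 was the lowest library of each genotype. The genotypes overlapped and differed by 0.07 on the log2 scale (SE 0.21, DESeq2 adjusted p = 0.984). Errfi1, a feedback inhibitor of the epidermal growth factor receptor (ENSMUSG00000028967, chromosome 4, 150938376 to 150955402, plus strand), had 1025, 1084, 987 and 899.6 normalized counts in L192P and 963, 929, 1096 and 1041 in WT. Its libraries lay close together, at a difference of -0.01 on the log2 scale (SE 0.08, DESeq2 adjusted p = 0.996) and an interval of the fold of 0.886 to 1.11. Its direction flipped with size factors from total counts, to 0.016. Zbtb16, a zinc finger transcription factor also known as Plzf (ENSMUSG00000066687, chromosome 9, 48563141 to 48748664, minus strand), had 1119, 868, 835 and 637 normalized counts in L192P and 1366, 768, 944 and 730.5 in WT. Replicate 1 was the highest library and replicate 4 the lowest in both genotypes. The difference of -0.14 on the log2 scale had the largest SE of the 10 genes, 0.26 (DESeq2 adjusted p = 0.960). Nfkbia, the inhibitor that holds NF-kappa-B in the cytoplasm (ENSMUSG00000021025, chromosome 12, 55535332 to 55539432, minus strand), had 409, 529, 583 and 562 normalized counts in L192P and 348, 504, 580.1 and 507 in WT. It had the higher value in L192P in all 4 same-numbered pairs, as in 12.3% of genes tested, but the difference of 0.10 on the log2 scale (SE 0.15) did not pass (DESeq2 adjusted p = 0.939). When both replicate 1 libraries were left out, the log2 fold changes were 0.02 for Pdk4, -0.04 for Errfi1, -0.06 for Zbtb16 and 0.07 for Nfkbia, and none passed (DESeq2 adjusted p 0.984, 0.930, 0.920 and 0.874).

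**Figure D3:**
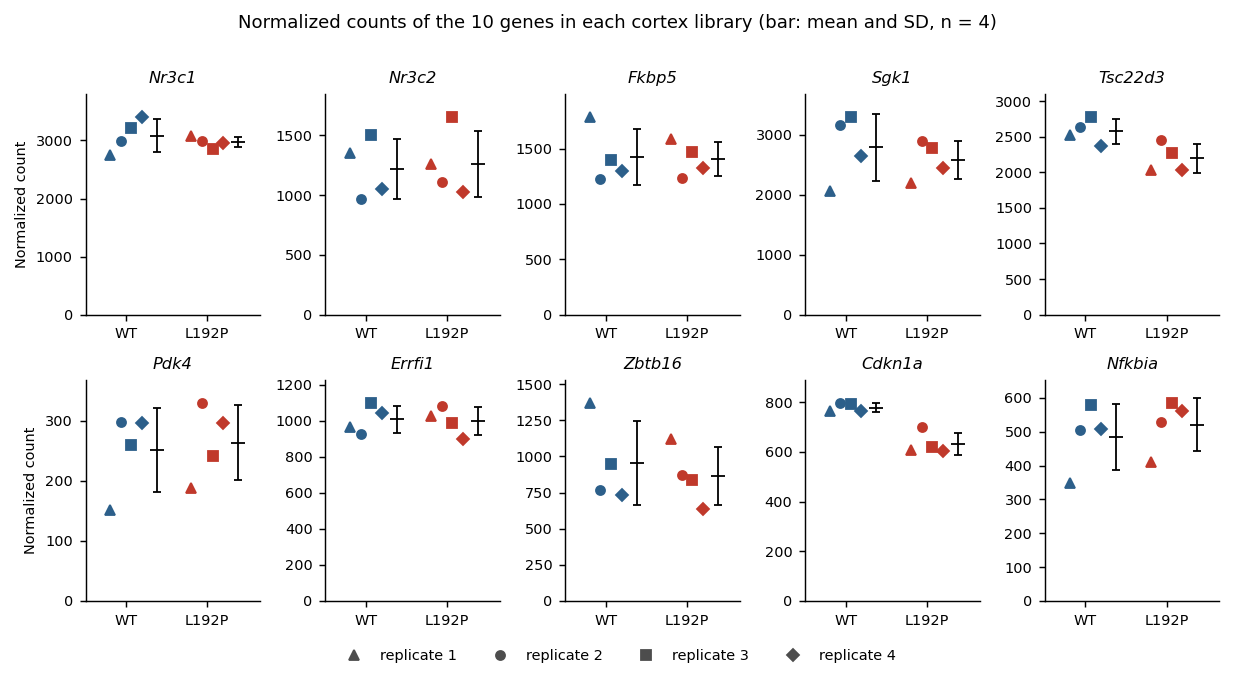
Normalized counts of the 10 genes in each library, WT in blue and L192P in red, with the marker shape giving the replicate number and the bar the mean and SD (n = 4); each vertical axis starts at 0. The 4 L192P libraries of Cdkn1a lie below the 4 WT libraries, while the genotypes overlap for the other 9 genes.

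Cdkn1a encodes p21, an inhibitor of cyclin-dependent kinases that both the glucocorticoid receptor and p53 can induce (ENSMUSG00000023067, chromosome 17, 29309936 to 29319701, plus strand). It had 607, 699, 620 and 603 normalized counts in L192P replicates 1 to 4 and 764, 795, 793 and 763 in WT. Every L192P library was below every WT library, and the WT libraries spread over a narrower range. The mean fell from 779 ± 17.7 in WT to 632 ± 44.98 in L192P (SD, n = 4). On the log2 scale this was -0.30 (SE 0.08, 95% interval -0.46 to -0.15), or 0.811 of the WT level, at a DESeq2 adjusted p of 0.0163. A two-sided exact permutation test gave p = 0.0286, the smallest that 4 against 4 libraries can give. With the replicate block the DESeq2 adjusted p was 0.0217. The call was lost with edgeR (adjusted p 0.0961), with limma, without both replicate 1 libraries (DESeq2 adjusted p 0.0682, log2 fold change -0.29) and without any 1 of L192P replicates 1, 3 and 4 (DESeq2 adjusted p 0.0811, 0.121 and 0.132) or WT replicates 2, 3 and 4 (0.131, 0.134 and 0.0862).

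**Figure D4:**
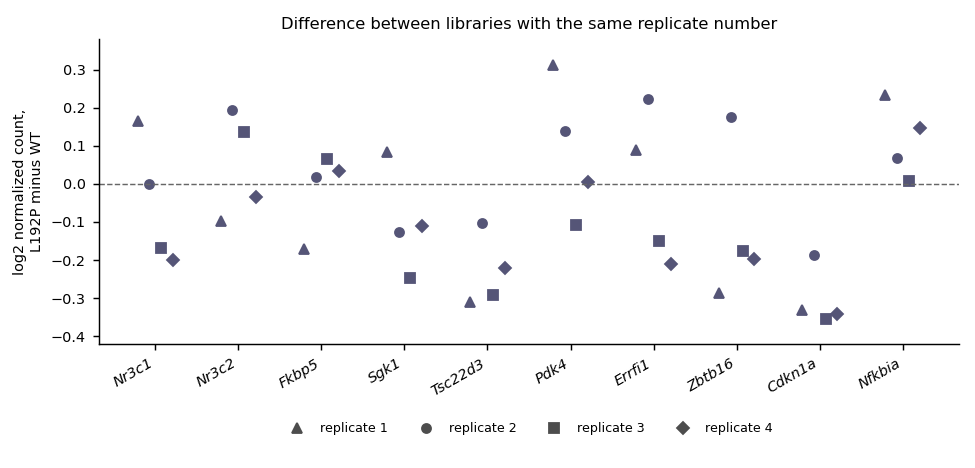
Difference in log2 normalized counts, L192P minus WT, between libraries with the same replicate number, for each of the 10 genes; the marker shape gives the number and the dashed line marks no difference. All 4 differences lie below 0 for Tsc22d3 and Cdkn1a and above 0 for Nfkbia, and the other 7 genes have differences on both sides.

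The p53 targets and the striatal markers were examined beside Cdkn1a. Among 10 further p53 targets, 9 were tested and 1 passed, beside 1.36% of all genes tested. This was Zmat3, a zinc finger RNA-binding protein. It had 2905, 2906, 2651 and 2853 normalized counts in L192P and 3346, 3440, 3331 and 3636 in WT, with no overlap. It differed by -0.28 on the log2 scale (SE 0.06). Its DESeq2 adjusted p was 5.79e-04, with 2.96e-05 under the replicate block and 5.47e-04 without both replicate 1 libraries, and edgeR gave 0.0572. At an unadjusted p under 0.05 there were 2 of the 9 tested p53 targets, Zmat3 among them, beside 9.44% of all genes tested. The genotypes did not overlap for 2 of the 9, again with Zmat3, beside 5.97% of all genes tested. The fold changes of the tested p53 targets were above 0 for 4 and below 0 for 5, with a median of -0.01 against 0.0019 over all genes tested. The summed level of the striatal markers, given above, did not overlap between the genotypes and was lower in L192P. Of 6 hypothalamic markers, 4 were tested by DESeq2 without a block, with fold changes above 0 for 3 and below 0 for 1. Avp and Oxt, 2 of these 4, were called higher in L192P, beside 1.36% of all genes tested. They were also the 2 called by edgeR, beside 0.314% of all genes. With the replicate block Avp passed (DESeq2 adjusted p = 5.16e-04), while Oxt had no adjusted p. The summed hypothalamic markers ran from 79.7 to 1119.6 in L192P and from 58.7 to 203 in WT. The other 10 marker lists covered neurons, glia, vessels, choroid plexus, meninges, hippocampus and blood. Of these lists 0 genes were called by DESeq2 without a block or by edgeR. At an unadjusted p under 0.05 there were 4 of 6 neuronal, 2 of 5 microglial and 2 of 4 meningeal markers, beside 9.44% of all genes tested. Fold changes were below 0 for 5 of the 6 neuronal markers and above 0 for all 5 microglial and all 4 meningeal markers. All 6 endothelial, all 4 mural and all 4 blood markers were above 0 too, and all 6 oligodendrocyte markers were below 0. The astrocyte, choroid plexus and hippocampal lists lay on both sides, with 2, 3 and 1 above 0 and 3, 1 and 4 below. With the replicate block 5 markers of these lists passed, beside 4.25% of all genes tested in that fit. They were 2 of 6 tested neuronal, 1 of 5 tested endothelial, 1 of 5 tested microglial and 1 of 3 tested meningeal markers. The neuronal genes Slc17a7 (-0.13 on the log2 scale, DESeq2 adjusted p = 0.0431) and Tbr1 (-0.25, adjusted p = 0.0147) were lower in L192P. The endothelial gene Slco1a4 (0.52, adjusted p = 0.0279), the microglial gene Cx3cr1 (0.30, adjusted p = 0.0416) and the meningeal gene Col1a2 (0.54, adjusted p = 0.0255) were higher. When both replicate 1 libraries were left out, 2 neuronal, 1 endothelial, 2 microglial, 2 meningeal and 2 blood markers passed, beside 3.46% of all genes. The part of these markers in the values of Cdkn1a and Tsc22d3 was not tested.

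Of the 10 genes, 5 were set apart in the replicate 1 libraries of both genotypes. In both genotypes Fkbp5 and Zbtb16 were higher in replicate 1 than in all 6 other libraries, and Sgk1, Pdk4 and Nfkbia were lower than in all 6. The mean of both replicate 1 libraries over the mean of the other 6 was 1.27 for Fkbp5, 1.56 for Zbtb16, 0.743 for Sgk1, 0.591 for Pdk4 and 0.695 for Nfkbia. Of the 13416 tested genes that averaged at least 50 normalized counts, 10.01% were above and 11.99% were below in this way. Nr3c1, Nr3c2, Tsc22d3, Errfi1 and Cdkn1a had at least 1 replicate 1 library inside the range of the others.

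Glial and endothelial markers were low in the same libraries. All 6 endothelial, all 5 astrocyte and all 5 microglial markers, and 5 of 6 oligodendrocyte and 2 of 4 mural markers, were lower in both replicate 1 libraries than in the other 6. The summed astrocyte markers were 23383 and 24999 normalized counts in replicate 1 of L192P and WT against 34241 to 37613, and the summed microglial markers were 3624 and 3785 against 4787 to 6584. The summed neuronal markers of replicate 1, 156262 and 157427, lay inside the range of the other libraries, as did the summed choroid plexus markers (22575 and 24271 against 14245 to 37902) and meningeal markers (638 and 708 against 544 to 1185). Among 25 other glucocorticoid-responsive genes, 1 was above in replicate 1 of both genotypes (Klf9) and 5 were below (Ddit4, Dusp1, Angptl4, Glul and Txnip). These are named after their values were seen. Of the tested genes that averaged at least 50 normalized counts, 10.01% were above and 11.99% below. Also below were 5 of 10 immediate early, 4 of 14 NF-kappa-B and 4 of 21 receptor machinery genes, and 0 of 10 p53 targets. In these 4 lists 0 genes were above. With 1 library per genotype, the low Xist level, the Y chromosome counts, the low glial and endothelial markers and any other property of the replicate 1 libraries cannot be told apart.

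**Figure D5:**
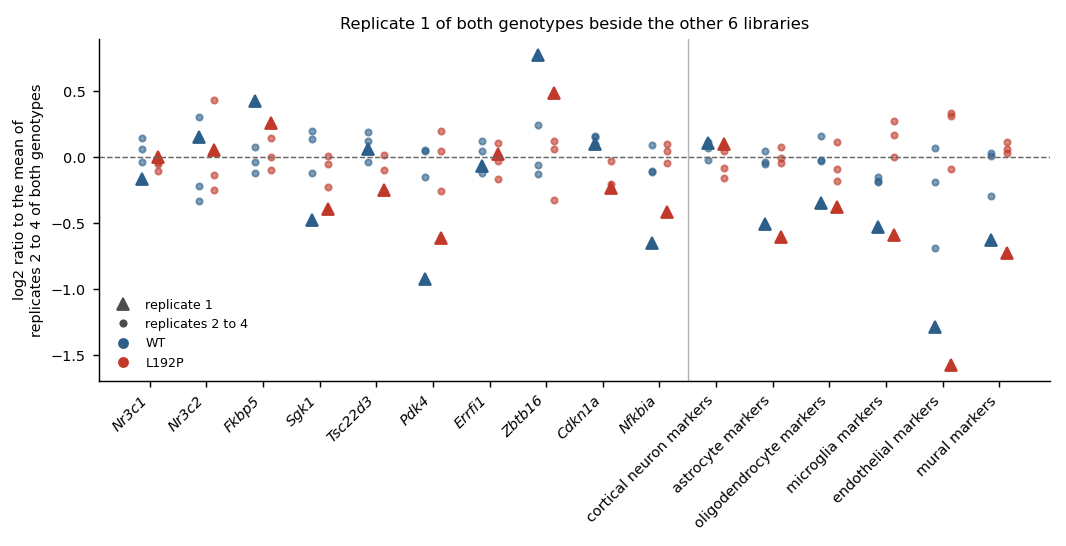
Log2 ratio of each library to the mean of replicates 2 to 4 of both genotypes, for the 10 genes (left of the line) and for summed markers of 6 cell types (right); triangles are replicate 1, dots replicates 2 to 4, blue WT and red L192P. Both triangles lie above the dots for Fkbp5 and Zbtb16 and below them for Sgk1, Pdk4, Nfkbia and the summed astrocyte, oligodendrocyte, microglial, endothelial and mural markers.

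The pattern of Fkbp5 over the 8 libraries was shared most closely by Slc4a7, Sms and Orc3 among 13406 other genes that averaged at least 50 normalized counts. Pearson's r of the log2 normalized counts was 0.991, 0.987 and 0.972, and Spearman's rho was 1, 0.952 and 0.976. Without both replicate 1 libraries r was 0.983, 0.951 and 0.969. These are descriptions over libraries that share the replicate pattern given above, chosen as the highest of many genes.

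The other genes of the pathway were read against the 1.36% of all genes called by DESeq2 without a block and the 9.44% at an unadjusted p under 0.05. Of 21 genes of the receptor machinery (chaperones, coregulators, and enzymes and a transporter of the hormone), 20 were tested and 0 passed in either direction with DESeq2, with 0 at an unadjusted p under 0.05, and edgeR also gave 0. The 2 with the smallest p were Hspa8, a chaperone of the receptor complex (log2 fold change -0.15, standard error 0.09, DESeq2 adjusted p 0.684), and Ncor1, a corepressor (0.10, standard error 0.06, adjusted p 0.694). Without both replicate 1 libraries 1 of the 21 listed genes passed, beside 3.46% of all genes tested in that fit. This was Hspa8, at -0.28 on the log2 scale (DESeq2 adjusted p = 7.96e-05). With the replicate block Hspa8 lay at -0.14 (DESeq2 adjusted p = 0.705). The list's fold changes were above 0 for 11 genes and below 0 for 9, with a median of 0.01. Hsd11b2, the enzyme that inactivates corticosterone, was not tested, with 1 count in WT replicate 3 and 0 in the other 7 libraries.

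Of 25 other glucocorticoid-responsive genes, 24 were tested and 0 passed with DESeq2, with 1 at an unadjusted p under 0.05, and edgeR gave 0. The 2 with the smallest p were Mt2, a metallothionein, with mean normalized counts of 82.5 ± 20.7 for L192P and 108 ± 8.43 for WT (SD, n = 4, log2 fold change -0.40, DESeq2 adjusted p 0.504), and Txnip, an inhibitor of thioredoxin, at 505 ± 81.2 and 427 ± 39.6 (0.24, adjusted p 0.557). The median of the list was -0.02, with 10 genes above 0 and 14 below. With the replicate block 1 of 22 tested genes passed, beside 4.25% of all genes tested in that fit. This was Glul, the glutamine synthetase of astrocytes, at -0.14 on the log2 scale (DESeq2 adjusted p = 0.00948). Without both replicate 1 libraries 1 of the 25 listed genes passed, beside 3.46% of all genes tested in that fit. This was the phosphatase gene Dusp1, lower in L192P at -0.40 on the log2 scale (DESeq2 adjusted p = 0.0201).

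The NF-kappa-B pathway, which the receptor represses, had 11 of 14 genes tested and 0 called with DESeq2, with 0 at an unadjusted p under 0.05, and edgeR gave 0. The adhesion molecule Icam1 lay at 0.64 on the log2 scale (SE 0.36, DESeq2 adjusted p = 0.601) and the subunit Nfkb1 at 0.17 (SE 0.11, adjusted p = 0.6998). Of 10 immediate early genes, which report recent neuronal activity, 0 passed with DESeq2, with 1 at an unadjusted p under 0.05, and edgeR gave 0. Egr1 had 6205 ± 521 normalized counts in L192P and 7703 ± 1625 in WT (SD, n = 4, log2 fold change -0.31, DESeq2 adjusted p 0.269), and Fosb lay at -0.24 on the log2 scale (adjusted p 0.540). Of these genes 9 lay below 0, with a median of -0.17. Without both replicate 1 libraries 1 of the 10 passed, beside 3.46% of all genes tested in that fit. This was Egr1, at -0.49 (DESeq2 adjusted p = 6.15e-07), while with the replicate block its adjusted p was 0.584.

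Exons of 7 of the 10 genes overlap exons of genes on the opposite strand in GENCODE M39, and the strand setting of the counting was not stated, so reads of both partners cannot be told apart. Of 11 such partners, 5 had a row in the count table, and these had few counts. The others had no row, so their counts are not known. Among them were every partner of Nr3c1, Sgk1 and Errfi1, and Gm64878, which overlaps Cdkn1a. Dino, which overlaps Cdkn1a, had 0 to 13 counts per library, Gm36634 (Nfkbia) 0 to 6, Gm22146 (Fkbp5) 0 to 3 and Gm10649 (Nr3c2) 32 to 45. Tsc22d3, Pdk4 and Zbtb16 had no such overlap.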

How the data were processed

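The authors prepared stranded mRNA libraries, aligned the reads to GRCm39 with STAR and counted them per gene with featureCounts. STAR 2.7.9a, featureCounts 1.5.1 and DESeq2 1.40.2 are named in the submitters' processing notes. The strand setting and annotation release are not given in the sources used here. The authors deposited raw counts and a second table of normalized signal, which equals each count divided by a DESeq2 size factor (largest difference 2.91e-10).

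Here the deposited counts were fitted with DESeq2 1.42.0 in R 4.3.3 on genotype, over all 8 libraries. Calls required an adjusted p (Benjamini-Hochberg, over the 18627 genes left by independent filtering) under 0.05. Normalized counts are counts divided by size factors, fold changes are unshrunken, and intervals are 95% Wald intervals. TPM used the union of exons of GENCODE M39. Counting error and the spread between libraries both enter the standard errors. The labels do not say that libraries of 1 genotype came from separate animals, so p-values measure the spread between libraries. No 2 libraries of the same genotype agreed within sampling noise (chi-square per degree of freedom 5.52 to 22.6).

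The replicate numbers come from the labels. Over 13416 genes, deviations from the group means correlated at 0.52, 0.35, 0.22 and 0.28 between libraries numbered 1 to 4, and at -0.31 to 0.10 between different numbers, so the numbers were taken to pair the libraries and blocked values are given where they changed a call among the 10 genes or the lists reported.

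The 10 genes, the other lists and the tests were chosen with earlier results of these data known. Named from other lists were the genes called, or else the 2 with the smallest unadjusted p, and the 3 genes most like Fkbp5. The alternatives were edgeR 4.0.16, limma 3.58.1 (voom, and trend on log2 normalized values plus 1 or 0.5), TMM or total-count factors, a filter of 10 counts in 4 libraries, independent or Cook filtering off, the replicate block, 1 surrogate variable (sva 3.50.0) and leaving out libraries. A covariate for replicate 1 was added after seeing the data. Programs were tested on simulated data. No mature sequence of miR-124-3p was used here. Calls of single striatal markers are not reported here.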

Additional observations from a re-analysis of the deposited data

How the results depend on the processing

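The number of the 10 genes called was 1. It stayed 1 with TMM or total-count size factors, the filter of 10 counts in 4 libraries, independent filtering off and the Cook filter off. It was 0 with edgeR, limma voom and limma trend with a pseudocount of 1 or 0.5, and 0 without both replicate 1 libraries. It was 2 with the replicate block in DESeq2 and in edgeR, with 1 surrogate variable and with the replicate 1 covariate, where Tsc22d3 had DESeq2 adjusted p-values of 0.0277 and 0.0399 in the last pair of fits. Leaving out 1 library gave 0 to 2 genes. At an unadjusted p under 0.05 the fit without WT replicate 1 gave 3 of the 10 genes, beside 13.2% of all genes tested in it. All other fits gave 2 of the 10. The share of all genes tested was 9.44% in the fit without a block. It ran from 5.72% with independent filtering off to 17.5% with the replicate block in edgeR. Among all genes 253 were called, with 45 by limma voom and 533 under the replicate block as the lowest and highest counts outside the fits that left out 1 library. In all, 187 of 220 alternative values for single genes kept their direction and their side of the threshold, 11 lost the call (all Cdkn1a), 5 gained it (all Tsc22d3) and 17 changed sign. Cdkn1a was lower in all 22 alternatives, at log2 fold changes of -0.35 to -0.28 and adjusted p-values of 0.00798 to 0.134.

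The sign changes were in genes that did not pass. Fkbp5 moved to 0.0017 with total-count factors, 0.0014 with 1 surrogate variable, 0.041 without both replicate 1 libraries and, leaving out 1 library, to between 0.0062 (L192P replicate 4) and 0.11 (WT replicate 1), with 0.034 without L192P replicate 2. Errfi1 moved to 0.016 with total-count factors and to 0.038, 0.034 and 0.0064 without L192P replicate 4, WT replicate 3 and WT replicate 4. Nr3c2 moved to -0.10, -0.046 and -0.014 without L192P replicate 3, WT replicate 2 and WT replicate 4. Pdk4 moved to -0.060 without L192P replicate 2 and -0.12 without WT replicate 1. Without WT replicate 1, Zbtb16 moved to 0.089 and Nfkbia to -0.028. Over the fits that left out 1 library, Nr3c1 ran from -0.11 (without WT replicate 1) to -0.0050 (without WT replicate 4) and Sgk1 from -0.24 (without WT replicate 1) to -0.027 (without WT replicate 3), and the opposite ends of the other ranges were 0.17 for Nr3c2, -0.092 for Fkbp5, 0.20 for Pdk4, -0.051 for Errfi1, -0.29 for Zbtb16 and 0.20 for Nfkbia. The cause of these shifts was not tested. With the replicate block, calls were gained for Tsc22d3 among the 10 genes, Glul among the listed genes of the pathway and 5 cell type markers named above. The call of Oxt was not kept, since Oxt had no adjusted p in that fit. No other call changed on the lists whose calls are reported. The 4 against 4 design cannot give an exact p below 0.0286.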
